A study of Mus musculus with 12 samples.

Results

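CD8+ T cells are the killer T cells, but they can transcribe genes better known from CD4+ helper T cells. The 9 genes followed here, Gata3, Rora, Maf, Bcl6, Foxp3, Ikzf2, Ahr, Zbtb7b and Cd4, were chosen as regulators of helper fates or of the choice between the CD4 and CD8 lineages, with earlier results of these data known. They were found in the count table by their mouse Ensembl identifiers, 9 of 55487 identifiers, and all 9 passed the filter on low counts that left 15897 genes to test. RNA was sequenced in 12 bulk libraries of splenic CD8+ T cells of C57BL/6 mice, 3 in each of 4 treatments: IL-12 80%TCM, IL-12, IL-2 80%TCM and IL-2. Every group received a cytokine, so none was untreated, and TCM is not spelled out in the labels, while the series title names induced tumor-like conditions. The labels give no age, dose or duration and give no word on separate mice or cultures behind the libraries of 1 group, so p-values measure the spread between these libraries, which may be technical.

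T helper cells specialise under lineage-defining transcription factors that are switched on by cytokine signals. GATA3 drives the type 2 helper fate, RORα acts in type 17 helper cells, BCL6 directs follicular helper cells, FOXP3 defines regulatory T cells, and MAF and AHR shape cytokine output in several of these fates. In the thymus ThPOK, the product of Zbtb7b, secures the CD4 lineage and is opposed by RUNX3, which silences Cd4 in the CD8 lineage. IL-2 signals mainly through STAT5 and IL-12 mainly through STAT4.

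In cells given IL-12, Gata3, Foxp3 and Cd4 were lower and Rora, Bcl6 and Ahr were higher than in cells given IL-2, both with and without TCM. With TCM, Cd4 and Bcl6 were higher under either cytokine, Maf fell in IL-2 cells by 2.02-fold, and Zbtb7b rose in IL-12 cells by 1.84-fold. The effect of TCM differed between the cytokines for Maf and for Bcl6. Levels are counts per 1e+06 counts (CPM) on scaled library sizes, differences are log2 fold changes with their standard errors (SE), and a gene is called where edgeR's quasi-likelihood test gave an adjusted p under 0.05.

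Total counts, in units of 1e+06, lay between 19.5 and 26.0 per library, except in replicates 1 and 2 of IL-12 with 49.6 and 42.3. A single count was worth 0.0211 to 0.0538 CPM. All 8 genes of a T cell list were detected in every library, with a summed level of 3124 to 3601 CPM, and Cd8a with Cd8b1 summed to 1341 to 1875 CPM. The third library of both IL-2 groups stood apart from the others: Pkm, a glycolytic enzyme gene, was at 3972 CPM there against a mean of 1120 CPM in replicates 1 and 2 of IL-2 80%TCM, and at 4028 CPM against 1163 CPM in IL-2. Among the 9 genes this library was farthest from the others for Zbtb7b, Ahr, Foxp3 and Ikzf2, at 1.59, 1.73, 1.5 and 0.719 times the mean of replicates 1 and 2 in IL-2 80%TCM.

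Per kilobase of exon, Gata3 had the highest group mean of the 9 genes in all 4 groups, at 5.09 ± 0.237 CPM per kb in IL-12 80%TCM, 4.66 ± 0.132 in IL-12, 12.5 ± 0.780 in IL-2 80%TCM and 14.4 ± 0.377 in IL-2 (SD, n = 3 each). In IL-12 80%TCM its lead over Zbtb7b, at 4.975 ± 0.3455 CPM per kb, was smaller than the SD of either gene. Ikzf2 stood between 4.09 and 5.66 CPM per kb in the 4 group means. Foxp3 and Ahr stayed below 1 CPM per kb in every group, and so did Cd4, which reached 0.946 CPM per kb in IL-2 80%TCM. Cd8a was at 369 CPM per kb in IL-12 80%TCM and 251 CPM per kb in IL-2, so Cd4 transcripts were a small fraction of Cd8a transcripts in these cells.

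**Figure D1:**
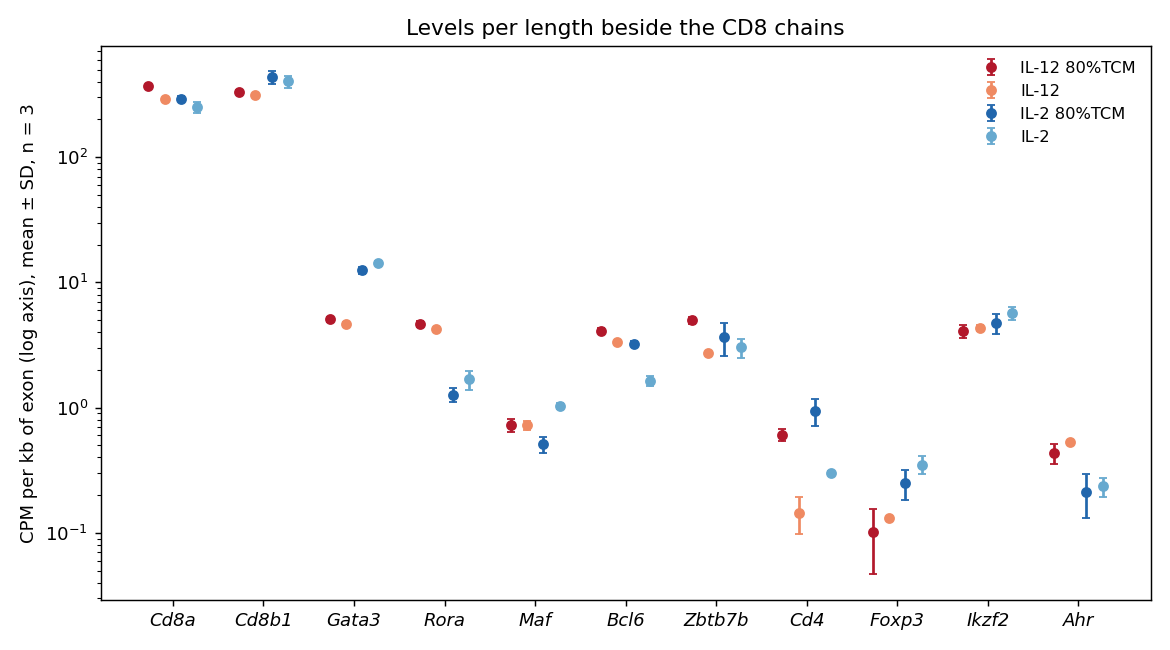
Levels of the 9 genes per kilobase of exon (CPM per kb, log axis) in each of the 4 groups, with Cd8a and Cd8b1 for scale. Points are means and bars the SD of 3 libraries. Gata3 has the highest mean of the 9 genes in each group, within the SD of Zbtb7b in IL-12 80%TCM, and Foxp3, Ahr and Cd4 lie below 1 CPM per kb in every group.

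Gata3 encodes the zinc finger factor of type 2 helper cells, which also supports the maintenance of CD8 T cells. Its level was 20.2, 19.3 and 21.2 CPM in the IL-12 80%TCM libraries, 19.1, 18.5 and 18 CPM in IL-12, 47.2, 53.3 and 49.1 CPM in IL-2 80%TCM, and 55.5, 57.5 and 58.4 CPM in IL-2. All 6 IL-12 libraries were below all 6 IL-2 libraries, and no neighbouring groups overlapped. Gata3 was lower with IL-12 than with IL-2 without TCM, at a log2 fold change of -1.62 ± 0.061 (SE, edgeR adjusted p = 3.51e-10), and with TCM, at -1.30 ± 0.063 (adjusted p = 2.63e-09). Within IL-2, Gata3 fell with TCM at a log2 fold change of -0.20 ± 0.059 (adjusted p = 0.042), and that call was lost in 16 of 21 alternatives, which gave adjusted p from 0.0101 to 0.197, among them the fits without any 1 library other than IL-2 80%TCM replicate 2. Within IL-12 the difference with TCM was 0.12 ± 0.064 (adjusted p = 0.164), although its libraries did not overlap either. The TCM effects differed by 0.32 ± 0.087 between the cytokines, at adjusted p = 0.0904, and at 0.0186 with replicate numbers blocked in the IL-2 groups (0.0186 to 0.303 over the alternatives). Here and below, the pairing behind this block was taken from the data, mostly from replicate 3, and not from the labels.

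The genes whose pattern over the 12 libraries was most like that of Gata3, by the root mean square (RMS) difference of centred log2(CPM + 1) values among 9458 genes, were Cmtm7, Tnfrsf13b and Zfpm1, at 0.133, 0.140 and 0.157. Zfpm1 encodes FOG1, a cofactor that binds GATA proteins. It was at 24.1 ± 1.17 CPM in IL-12 80%TCM, 27.0 ± 0.985 in IL-12, 76.4 ± 3.47 in IL-2 80%TCM and 80.0 ± 6.99 in IL-2 (SD, n = 3 each). Of the 6 tested genes of the list of GATA family members and cofactors, 0 were higher and 4 lower with IL-12 than with IL-2 in the presence of TCM, and 1 was higher and 5 lower without it. Over all genes tested, 19.5% were higher and 19.4% lower with TCM, and 22.1% were higher and 23% lower without it, and the counts of the other lists for IL-12 over IL-2 can be read against the same shares. Gata2, which acts in blood progenitors and mast cells, was among the lower genes of the GATA list, at 2.93 ± 0.577 CPM in IL-12 80%TCM, 2.60 ± 0.188 in IL-12, 7.63 ± 1.08 in IL-2 80%TCM and 6.93 ± 1.01 in IL-2. Of the platelet and megakaryocyte markers given below, 6 of the 6 tested were also lower with IL-12, with TCM and without it. Whether the GATA list and these markers fell for a shared reason was not tested.

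Rora encodes the nuclear receptor RORα, which acts in type 17 helper cells and in type 2 innate lymphoid cells. It was at 63.8, 57.3 and 61.5 CPM in IL-12 80%TCM, 56.3, 55.6 and 54.1 CPM in IL-12, 14.6, 16.3 and 18.9 CPM in IL-2 80%TCM, and 20.2, 19.4 and 26.4 CPM in IL-2. Every IL-12 library lay above every IL-2 library, while for Gata3 every IL-12 library lay below. The log2 fold change of IL-12 over IL-2 was 1.87 ± 0.111 with TCM (SE, edgeR adjusted p = 2.06e-08) and 1.33 ± 0.108 without TCM (adjusted p = 5.4e-07). Rora fell with TCM in IL-2 cells, at a log2 fold change of -0.40 ± 0.113 (adjusted p = 0.0298). This call was lost without IL-2 80%TCM replicate 1 or 2, without IL-2 replicate 3, and with only the groups compared in the fit, where adjusted p was 0.0839, 0.0701, 0.0646 and 0.155 (range over the alternatives 0.00016 to 0.155). In IL-12 cells the difference with TCM was 0.14 ± 0.103 (adjusted p = 0.352), or adjusted p = 0.0279 with only the groups compared (range 0.0279 to 0.623). The difference of the TCM effects was 0.54 ± 0.153 at adjusted p = 0.106, and at 0.000379 when replicate numbers were blocked in the IL-2 groups and 0.0131 without IL-2 80%TCM replicate 3 (0.000379 to 0.223 over the alternatives).

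Arl4c, Raph1 and Mctp2 had the patterns closest to Rora, at RMS differences of 0.133, 0.148 and 0.149. Il17a and Il22, cytokine genes of type 17 cells, had group means of at most 0.0646 CPM and did not pass the filter. Il23r, the receptor gene for IL-23, was at 1.79 ± 0.317 CPM in IL-12 80%TCM, 1.43 ± 0.0839 in IL-12, 0.280 ± 0.112 in IL-2 80%TCM and 0.329 ± 0.156 in IL-2. Of 9 tested genes of the type 17 list, 3 were higher and 2 lower with IL-12 than with IL-2 in the presence of TCM, and 2 were higher and 2 lower without it. In the list of ROR target and clock genes, 4 of 10 were higher and 4 lower in each of these comparisons. The most significant of these, Npas2, a relative of the clock factor CLOCK, was lower with IL-12, at 3.10 ± 0.465 CPM in IL-12 80%TCM, 1.74 ± 0.142 in IL-12, 9.43 ± 0.431 in IL-2 80%TCM and 6.47 ± 0.385 in IL-2.

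**Figure D2:**
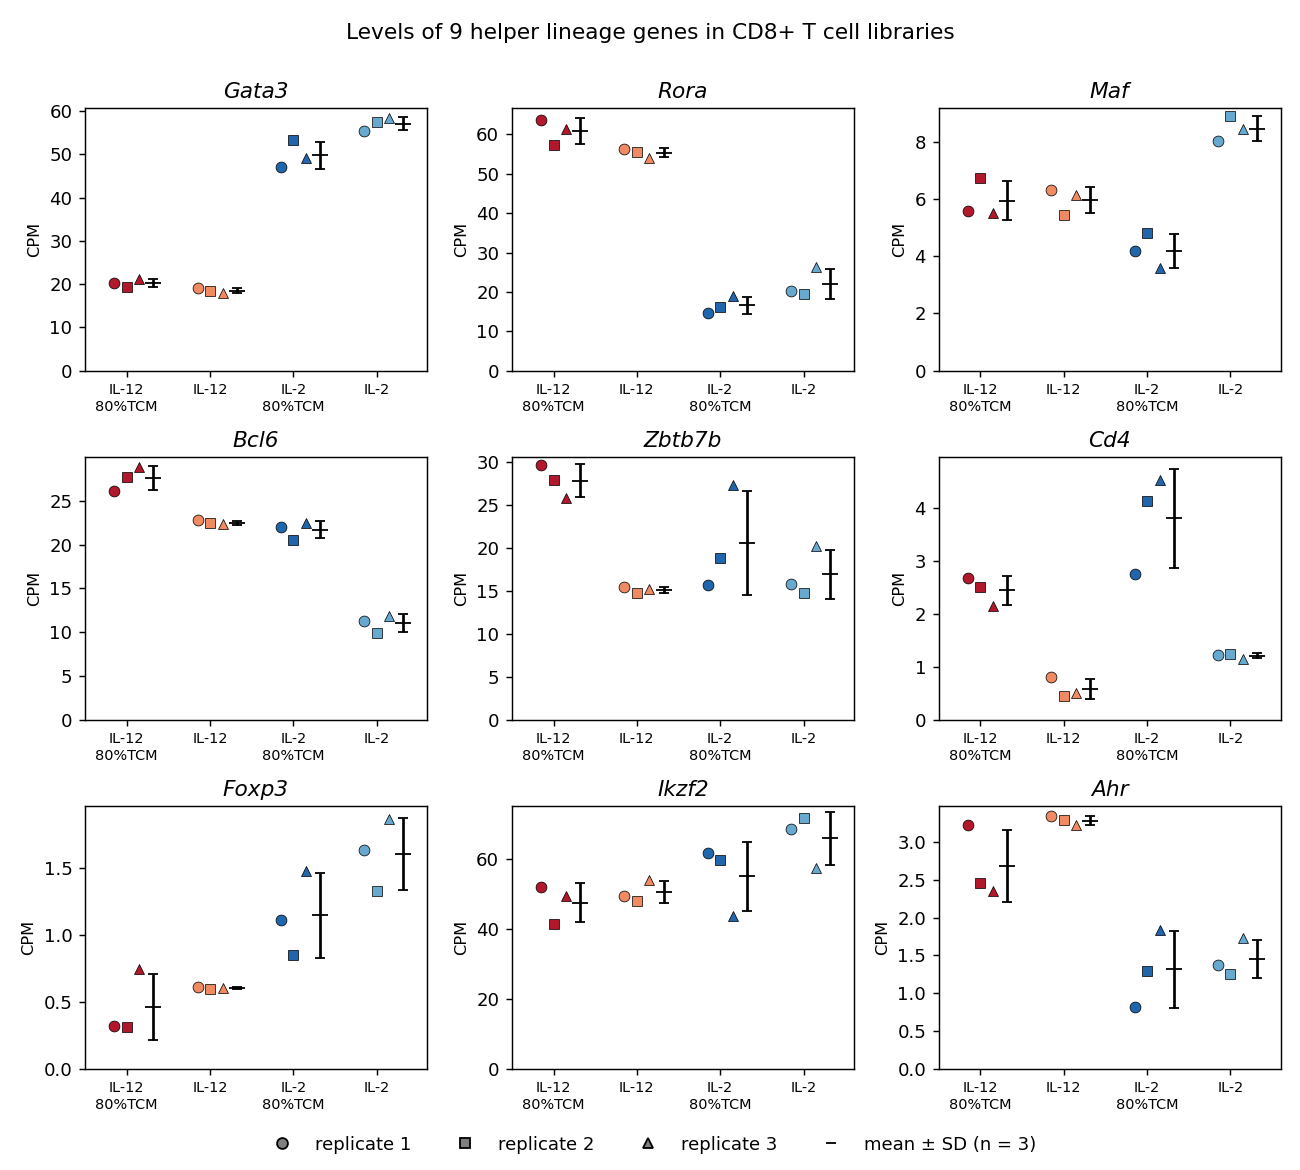
Level of each of the 9 genes in every library (CPM, linear axis from 0), by group from IL-12 80%TCM at the left to IL-2 at the right. Points are libraries and horizontal lines are group means of 3 libraries. Gata3 is low and Rora high in all 6 IL-12 libraries, and Cd4 is higher in the libraries with TCM under either cytokine.

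Maf encodes c-MAF, a leucine zipper factor that promotes IL-4, IL-10 and IL-21 expression in helper cells. It had 5.59, 6.75 and 5.5 CPM in IL-12 80%TCM, 6.30, 5.43 and 6.14 CPM in IL-12, 4.17, 4.80 and 3.59 CPM in IL-2 80%TCM, and 8.02, 8.90 and 8.44 CPM in IL-2. IL-2 alone held the highest libraries and IL-2 80%TCM the lowest, with both IL-12 groups between them and overlapping each other. Within IL-2, Maf fell with TCM at a log2 fold change of -1.01 ± 0.131 (SE, edgeR adjusted p = 0.000383). Within IL-12 the change was -0.00 ± 0.130 (adjusted p = 0.994), with a 95% interval from -0.28 to 0.28. The difference between these effects was itself called, at 1.01 ± 0.185 (adjusted p = 0.0151), but was lost without replicate 2 of IL-12 80%TCM, IL-12 or IL-2, at adjusted p = 0.0669, 0.0599 and 0.0525 (range over the alternatives 0.000547 to 0.0669).

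The order of the cytokines was opposite with and without TCM. Maf was higher with IL-12 than with IL-2 in the presence of TCM, at 0.50 ± 0.135 (SE, edgeR adjusted p = 0.00981), and lower in its absence, at -0.51 ± 0.126 (adjusted p = 0.00537). The call with TCM was lost without IL-12 80%TCM replicate 2, at adjusted p = 0.0616 (range 0.00321 to 0.0616). Il10, the anti-inflammatory cytokine gene that c-MAF is known to promote, did not follow Maf. Il10 was at 62.7 ± 2.83 CPM in IL-12 80%TCM, 49.0 ± 3.77 in IL-12, 0.556 ± 0.0752 in IL-2 80%TCM and 0.789 ± 0.326 in IL-2 (SD, n = 3 each), so it differed strongly by cytokine with no change of order. Its log2 fold change of IL-12 over IL-2 was 6.82 ± 0.160 with TCM (adjusted p = 2.68e-12) and 5.95 ± 0.153 without (adjusted p = 9.2e-12). Il21, a growth factor gene of follicular and type 17 helper cells, averaged 1.64 ± 0.170 CPM in IL-12 80%TCM, 2.13 ± 0.246 in IL-12, 0.168 ± 0.124 in IL-2 80%TCM and 0.295 ± 0.135 in IL-2. Of the 7 tested genes of the list of MAF relatives and targets, 4 were higher and 0 lower with IL-12 than with IL-2 with TCM, and 3 were higher and 0 lower without TCM.

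Bcl6 encodes the repressor that directs follicular helper cells and, in CD8 cells, supports memory against the terminal effector fate. STAT5 is known to repress Bcl6 in T cells, so its 2 RefSeq promoter windows of 250 bases are shown, with matches to the STAT motif TTCNNNGAA, which reads the same on both strands, in capitals. Both lie on the minus strand of chromosome 16 in build GRCm38.p6, the first at chr16:23988853-23989102 and the second, inside the gene in an intron of the GENCODE annotation, at chr16:23981284-23981533.

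Bcl6 window 1: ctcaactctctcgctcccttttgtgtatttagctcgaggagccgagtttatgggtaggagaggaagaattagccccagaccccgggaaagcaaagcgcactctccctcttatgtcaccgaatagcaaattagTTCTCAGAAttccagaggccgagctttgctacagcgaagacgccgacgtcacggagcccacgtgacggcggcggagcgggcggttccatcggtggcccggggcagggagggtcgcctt

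Bcl6 window 2: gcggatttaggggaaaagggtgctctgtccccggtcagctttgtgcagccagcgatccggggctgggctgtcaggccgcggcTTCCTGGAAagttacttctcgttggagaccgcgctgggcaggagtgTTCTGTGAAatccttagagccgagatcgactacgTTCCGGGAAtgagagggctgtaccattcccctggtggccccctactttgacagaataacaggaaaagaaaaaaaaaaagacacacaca

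Window 1 held 1 match, starting at base -118 from the start site, and window 2 held 3, at -168, -122 and -88. Over all 32851 promoter windows of the same length, 7.02% held the motif at least once and 9 windows, 0.0274%, held it 3 or more times. The cut of 3 is the count in window 2 itself, so that share is a description only. Such matches describe the letters only, and binding was not measured. Promoter windows were found for 5 of the 9 genes, Gata3, Rora, Foxp3, Bcl6 and Zbtb7b, in 8 windows, while Maf, Ahr, Ikzf2 and Cd4 are named only. Among those windows TTCNNNGAA was also found in 1 of Foxp3 and in none of Gata3, Rora and Zbtb7b. Motifs of GATA factors, AHR and ROR receptors were searched for in the same windows as well, and their matches are not given here.

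Bcl6 was at 26.1, 27.8 and 28.9 CPM in IL-12 80%TCM, 22.8, 22.4 and 22.3 CPM in IL-12, 22.0, 20.6 and 22.5 CPM in IL-2 80%TCM, and 11.3, 9.87 and 11.9 CPM in IL-2. The IL-2 libraries without TCM stood below all others, and IL-12 and IL-2 80%TCM overlapped. TCM raised Bcl6 in IL-2 cells by 0.98 ± 0.082 on the log2 scale (SE, edgeR adjusted p = 1.95e-05), or 1.97-fold. In IL-12 cells it rose by 0.29 ± 0.078 (adjusted p = 0.0136), a call lost without IL-12 replicate 2 (0.0506) or IL-12 80%TCM replicate 3 (0.0696), over a range of 0.000297 to 0.0696. The TCM effect was smaller under IL-12 than under IL-2, with a log2 difference of -0.68 ± 0.113 (adjusted p = 0.00965), and this was called in all 20 alternatives. IL-12 over IL-2 gave 0.35 ± 0.079 with TCM (adjusted p = 0.00353) and 1.03 ± 0.082 without TCM (adjusted p = 4.46e-07).

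Clec2i and Crem were among the genes closest in pattern to Bcl6, at RMS differences of 0.172 and 0.174. Crem, which encodes a cAMP-responsive transcription factor, averaged 32.3 CPM in IL-12 80%TCM, 29.0 CPM in IL-12, 22.0 CPM in IL-2 80%TCM and 15.1 CPM in IL-2. In the list of 13 tested follicular helper genes, TCM came with 1 higher and 0 lower genes in IL-12 cells, and with 4 higher and 0 lower genes in IL-2 cells. The shares over all genes tested for TCM were 14.8% higher and 14.2% lower in IL-12 cells, and 6.73% higher and 7.82% lower in IL-2 cells. Cxcr5, the chemokine receptor that leads follicular helper cells to B cell follicles, rose with TCM in IL-2 cells by 1.28 ± 0.254 on the log2 scale (SE, edgeR adjusted p = 0.00548), to 14.5 ± 3.99 CPM against 5.99 ± 1.73 CPM in IL-2 (SD, n = 3 each). In IL-12 cells Cxcr5 was at 4.33 ± 1.32 CPM with TCM and 2.80 ± 0.413 CPM without. Cd200, an inhibitory ligand of follicular helper cells, was at 54.9 ± 2.14 CPM in IL-12 80%TCM, 55.6 ± 2.07 in IL-12, 14.5 ± 3.01 in IL-2 80%TCM and 9.53 ± 0.769 in IL-2. With IL-12 over IL-2 the list split, 7 higher and 5 lower with TCM and 6 higher and 5 lower without.

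Of 12 tested partners and antagonists of BCL6, 5 were higher and 6 lower with IL-12 than with IL-2 in the presence of TCM, and 4 were higher and 4 lower without. Stat5a and Stat5b encode close relatives that carry the IL-2 signal. Stat5a was at 228 ± 5.21 CPM in IL-12 80%TCM, 217 ± 2.04 in IL-12, 113 ± 3.84 in IL-2 80%TCM and 116 ± 10.5 in IL-2, with a log2 fold change of IL-12 over IL-2 of 1.02 ± 0.061 with TCM (SE, edgeR adjusted p = 2.34e-08). Stat5b was also higher with IL-12, by 0.60 on the log2 scale with TCM (adjusted p = 2.79e-07). Prdm1, which encodes BLIMP1, the antagonist of BCL6, averaged 20.4 ± 2.06 CPM in IL-12 80%TCM, 12.8 ± 1.61 in IL-12, 9.95 ± 4.36 in IL-2 80%TCM and 9.91 ± 6.78 in IL-2, and was called only for IL-12 over IL-2 with TCM, at 1.03 ± 0.365 (adjusted p = 0.0395).

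Foxp3 encodes the defining factor of regulatory T cells and stayed at low levels in every library. It was at 0.323, 0.314 and 0.749 CPM in IL-12 80%TCM, 0.613, 0.593 and 0.604 CPM in IL-12, 1.11, 0.848 and 1.48 CPM in IL-2 80%TCM, and 1.63, 1.33 and 1.86 CPM in IL-2. These levels rest on 6 to 15 counts per library in IL-12 80%TCM, 12 to 29 in IL-12, 23 to 37 in IL-2 80%TCM and 33 to 42 in IL-2. All IL-12 libraries were below all IL-2 libraries, and the groups with and without TCM overlapped under either cytokine. Foxp3 was lower with IL-12 than with IL-2, at a log2 fold change of -1.29 ± 0.340 with TCM (SE, edgeR adjusted p = 0.009) and at a log2 fold change of -1.40 ± 0.289 without TCM (adjusted p = 0.00157). With TCM against without, the log2 fold change was -0.37 ± 0.355 in IL-12 cells (adjusted p = 0.474) and -0.49 ± 0.278 in IL-2 cells (adjusted p = 0.276). The 95% intervals of these values ran from -1.14 to 0.40 in IL-12 cells and from -1.09 to 0.11 in IL-2 cells.

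In the GENCODE annotation 18.6% of the Foxp3 exon bases lie within exons of Flicr, a noncoding RNA on the same strand with 9 to 38 counts per library. On the opposite strand 12.9% lie within exons of Ccdc22, 8.15% of Gm36995 and 5.81% of Ppp1r3f. Ccdc22 had 0 counts in every library. How the authors' counting treated strand is unknown here, so reads in these stretches may be split or lost. In bulk RNA, fewer cells of a type and less RNA per cell cannot be told apart, which applies to Foxp3 and to each of the other genes.

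Ikzf2 encodes Helios, an Ikaros family factor found in regulatory T cells and in a subset of CD8 cells. It had 51.8, 41.3 and 49.3 CPM in IL-12 80%TCM, 49.4, 47.9 and 53.9 CPM in IL-12, 61.5, 59.7 and 43.5 CPM in IL-2 80%TCM, and 68.4, 71.6 and 57.2 CPM in IL-2. Neighbouring groups overlapped throughout, and the third library was the lowest in both IL-2 groups. Ikzf2 was lower with IL-12 than with IL-2 without TCM, at a log2 fold change of -0.39 ± 0.125 (SE, edgeR adjusted p = 0.0225), a call lost when replicate 1 or 2 of IL-12, or replicate 1 or 2 of IL-2, was left out, at adjusted p of 0.0858, 0.0942, 0.0778 and 0.104 (range 4.92e-07 to 0.104). With TCM the difference was -0.21 ± 0.127 (adjusted p = 0.213), or adjusted p = 0.0115 without IL-2 80%TCM replicate 3 and 0.0286 when replicates were blocked in the IL-2 groups (range 7.41e-05 to 0.528). TCM in IL-2 cells gave -0.26 ± 0.125 (adjusted p = 0.191), or 0.00575 with that block (range 0.00575 to 0.529). Without the third library of both IL-2 groups, adjusted p was 7.41e-05 for IL-12 over IL-2 with TCM and 0.0366 for TCM in IL-2 cells.

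Ikzf4, which encodes the related factor Eos, a partner of FOXP3, was the called gene of the 4 in the Ikaros family list. It was at 15.7 ± 1.49 CPM in IL-12 80%TCM, 15.2 ± 0.431 in IL-12, 27.9 ± 2.28 in IL-2 80%TCM and 28.8 ± 2.75 in IL-2, a log2 fold change of -0.83 ± 0.095 for IL-12 over IL-2 with TCM (SE, edgeR adjusted p = 1.29e-05) and of -0.92 ± 0.093 without (adjusted p = 4.32e-06). In the regulatory T cell list, 4 of 14 tested genes were higher and 6 lower with IL-12 than with IL-2 with TCM, and 3 were higher and 6 lower without. Itgae, which encodes the CD103 integrin chain, had 5.43 ± 1.02 CPM in IL-12 80%TCM, 23.2 ± 0.852 in IL-12, 68.9 ± 6.39 in IL-2 80%TCM and 249 ± 14.2 in IL-2. Lrrc32, which encodes GARP, a carrier of latent TGF-β on regulatory T cells, had 0.714 ± 0.156 CPM in IL-12 80%TCM, 1.01 ± 0.216 in IL-12, 7.02 ± 0.0929 in IL-2 80%TCM and 4.51 ± 0.290 in IL-2. Il2ra, which encodes the alpha chain of the IL-2 receptor, went the other way and was higher with IL-12, by 1.75 on the log2 scale with TCM (adjusted p = 1.65e-10).

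Ahr encodes the aryl hydrocarbon receptor, a ligand-activated factor that senses tryptophan metabolites and pollutants. It was at 3.23, 2.46 and 2.35 CPM in IL-12 80%TCM, 3.34, 3.28 and 3.22 CPM in IL-12, 0.824, 1.29 and 1.83 CPM in IL-2 80%TCM, and 1.37, 1.25 and 1.73 CPM in IL-2, from 17 to 158 counts. All IL-12 libraries were above all IL-2 libraries, and within a cytokine the groups overlapped. Ahr was higher with IL-12 by 1.0 ± 0.246 with TCM (SE, edgeR adjusted p = 0.00568) and by 1.18 ± 0.233 without TCM (adjusted p = 0.00118). With TCM against without, the log2 fold change was -0.30 ± 0.223 in IL-12 cells (adjusted p = 0.348) and -0.12 ± 0.257 in IL-2 cells (adjusted p = 0.808).

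The AHR list holds response genes of AHR and also Arnt, which encodes its dimer partner. Of the 6 tested genes of this list, 3 were higher and 0 lower with IL-12 than with IL-2 in the presence of TCM. Without TCM 2 were higher and 1, Arnt, was lower. Ahrr, the repressor that AHR induces in feedback, had 13 ± 3.76 CPM in IL-12 80%TCM, 6.09 ± 0.583 in IL-12, 3.35 ± 0.806 in IL-2 80%TCM and 2.40 ± 0.550 in IL-2, and rose with TCM in IL-12 cells by 1.10 ± 0.211 on the log2 scale (SE, edgeR adjusted p = 0.00204). Cyp1b1, an enzyme gene that AHR induces, was at 1.87 ± 0.929 CPM in IL-12 80%TCM and 2.58 ± 1.21 in IL-12, and at 0.0162 ± 0.0280 in IL-2 80%TCM and 0.0575 ± 0.0678 in IL-2. Tiparp, another AHR-induced gene, rose with TCM in IL-12 cells by 0.33 ± 0.094 (adjusted p = 0.0195), to 27.3 ± 1.46 CPM against 21.7 ± 1.73 CPM in IL-12. Nqo1, a detoxifying enzyme gene of the same list, went the other way, at 2.36 ± 0.135 CPM in IL-12 80%TCM, 4.13 ± 0.783 in IL-12, 1.98 ± 0.0206 in IL-2 80%TCM and 3.33 ± 0.603 in IL-2. It fell with TCM at a log2 fold change of -0.82 ± 0.177 in IL-12 cells (edgeR adjusted p = 0.00431) and -0.75 ± 0.182 in IL-2 cells (adjusted p = 0.0152). With TCM, 3 of the 6 genes of the AHR list rose in IL-12 cells (Ahrr, Tiparp and Arnt) and 1 fell, while 0 rose and 1 fell in IL-2 cells. Arnt rose there by 0.22 ± 0.076 in IL-12 cells (edgeR adjusted p = 0.0475).

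Zbtb7b encodes ThPOK, the factor of CD4 commitment, which is also expressed by activated CD8 cells. It had 29.7, 27.9 and 25.8 CPM in IL-12 80%TCM, 15.4, 14.8 and 15.2 CPM in IL-12, 15.7, 18.8 and 27.4 CPM in IL-2 80%TCM, and 15.8, 14.8 and 20.2 CPM in IL-2. The IL-12 80%TCM libraries were above all IL-12 and IL-2 libraries, but the third IL-2 80%TCM library reached into their range. TCM raised Zbtb7b in IL-12 cells by 0.88 ± 0.167 (SE, edgeR adjusted p = 0.00193), a call kept in all 21 alternatives. In IL-2 cells the difference was 0.29 ± 0.168 (adjusted p = 0.287), or adjusted p = 0.0166 when replicates were blocked in the IL-2 groups (range 0.0166 to 0.846). The TCM effects differed by 0.59 ± 0.237 (adjusted p = 0.262), with adjusted p of 0.00135 under that block, of 0.0058 without IL-2 80%TCM replicate 3 and of 0.00022 without the third library of both IL-2 groups (range 0.00022 to 0.445).

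IL-12 over IL-2 gave 0.43 ± 0.166 for Zbtb7b with TCM (SE, edgeR adjusted p = 0.0564) and -0.16 ± 0.168 without TCM (adjusted p = 0.462). The value with TCM was called in 9 of 21 alternatives, among them the fits without IL-2 80%TCM replicate 3 (adjusted p = 0.000305), without IL-2 replicate 3 (0.0384) and with the block (5.73e-05), over a range of 1.56e-07 to 0.199. Runx3, which opposes ThPOK and silences Cd4, rose with TCM in IL-12 cells as well, by 0.50 ± 0.070 (adjusted p = 0.000244), to 372 ± 19.8 CPM against 262 ± 1.23 CPM in IL-12 (SD, n = 3 each). In IL-2 cells Runx3 was at 281 ± 15.5 CPM with TCM and 290 ± 29.8 CPM without, and the difference between the TCM effects was called at 0.55 ± 0.099 (adjusted p = 0.014).

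Cd4 encodes the coreceptor that defines helper T cells. It was at 2.69, 2.51 and 2.15 CPM in IL-12 80%TCM, 0.803, 0.444 and 0.503 CPM in IL-12, 2.76, 4.13 and 4.55 CPM in IL-2 80%TCM, and 1.23, 1.25 and 1.15 CPM in IL-2, from 10 to 114 counts. No groups overlapped, and the order from high to low was IL-2 80%TCM, IL-12 80%TCM, IL-2 and IL-12. Cd4 rose with TCM by 2.02 ± 0.258 in IL-12 cells (SE, edgeR adjusted p = 0.000136), or 4.05-fold, and by 1.66 ± 0.236 in IL-2 cells (adjusted p = 0.000757), or 3.15-fold. The difference between these effects was 0.36 ± 0.349 (adjusted p = 0.702), with a 95% interval from -0.39 to 1.11. Cd4 was lower with IL-12 than with IL-2, at a log2 fold change of -1.01 ± 0.272 without TCM (adjusted p = 0.00877) and at a log2 fold change of -0.65 ± 0.223 with TCM (adjusted p = 0.0348). The call with TCM was lost without any 1 of the 3 IL-12 80%TCM libraries, without replicate 2 or 3 of IL-2 80%TCM, and with limma on log2(CPM + 0.1), at adjusted p of 0.0511 to 0.114 (range 0.00891 to 0.114).

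Cd8a was also higher with TCM, by 0.34 on the log2 scale in IL-12 cells (edgeR adjusted p = 0.00199) and 0.23 in IL-2 cells (adjusted p = 0.0321). The other chain gene, Cd8b1, was not called, at 0.07 in IL-12 cells (edgeR adjusted p = 0.573) and 0.11 in IL-2 cells (adjusted p = 0.465). Of 13 tested genes of the list on the choice between CD4 and CD8, 3 rose and 1 fell with TCM in IL-12 cells, and in IL-2 cells 2 rose and 1 fell. Runx1, which silences Cd4 in thymocytes, rose with TCM in IL-2 cells by 0.58 ± 0.125 (adjusted p = 0.0085), to 20.1 ± 4.50 CPM against 13.5 ± 0.857 CPM in IL-2. Cd40lg, the helper ligand for B cells and macrophages, did not pass the filter, at 0.485 ± 0.0787 CPM in IL-12 80%TCM, 0.467 ± 0.119 in IL-12, 0.290 ± 0.0787 in IL-2 80%TCM and 0.272 ± 0.0353 in IL-2. The genes closest in pattern to Cd4 were Prrt1, Serpinb6b and Carns1, at RMS differences of 0.209, 0.220 and 0.223. The remaining 5 genes, Maf, Foxp3, Ikzf2, Ahr and Zbtb7b, had group means that spanned less than 1 on the log2(CPM + 1) scale, and no similar genes are named for them.

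**Figure D3:**
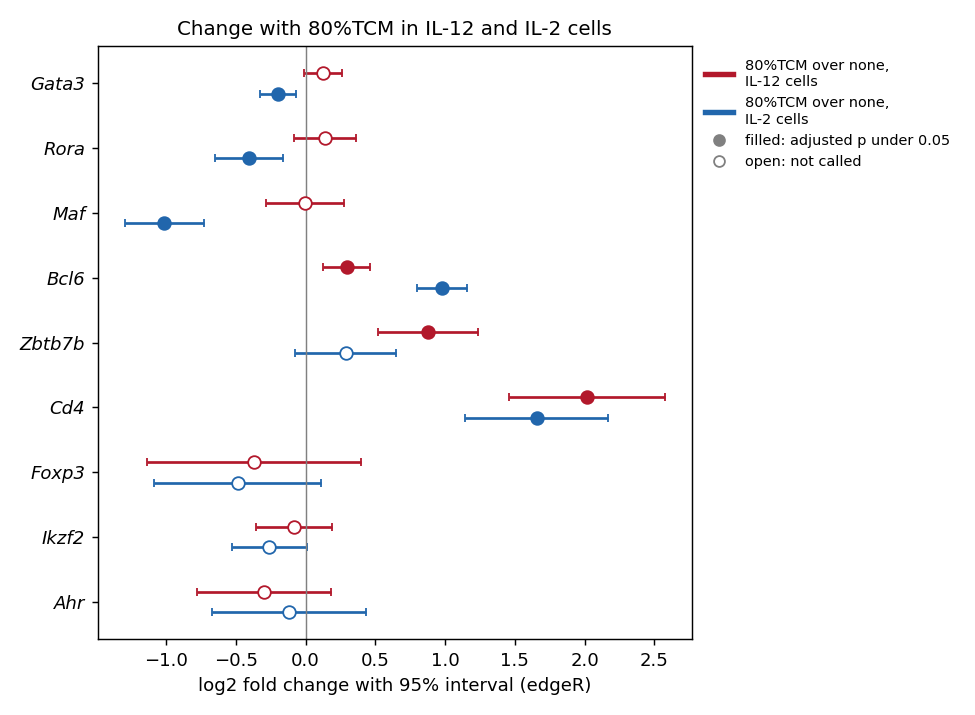
Log2 fold change with TCM over without TCM for the 9 genes, in IL-12 cells and in IL-2 cells. Points are edgeR estimates, bars are 95% intervals from 3 libraries a group, and filled points mark adjusted p under 0.05. Cd4 and Bcl6 are higher with TCM under both cytokines, Maf falls in IL-2 cells with a tested difference of 1.01 between the cytokines, and Zbtb7b is called in IL-12 cells.

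Counted over the 9 genes, TCM in IL-12 cells gave 3 calls, all higher (Bcl6, Cd4, Zbtb7b), beside 29% of all genes tested called in either direction (14.8% higher and 14.2% lower). The median absolute log2 fold change of the 9 genes was 0.29, against 0.22 over all genes. TCM in IL-2 cells gave 5 calls, 2 higher (Bcl6, Cd4) and 3 lower (Gata3, Rora, Maf), beside 14.5% of all genes (6.73% higher and 7.82% lower), with a median absolute log2 fold change of 0.40 against 0.17. When replicate numbers were blocked in the IL-2 groups, 7 of the 9 were called there, beside 4442 of all 15897 genes in place of 2313, and without IL-2 80%TCM replicate 1 or IL-2 replicate 3 the count was 3 of the 9. The libraries with and without TCM did not overlap for 5 of the 9 genes under IL-12, where 52.1% of all genes did not overlap, and for 5 of the 9 under IL-2, where 27.4% did not.

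IL-12 over IL-2 with TCM gave 7 calls, 4 higher (Rora, Maf, Bcl6, Ahr) and 3 lower (Gata3, Foxp3, Cd4), beside 39% of all genes (19.5% higher and 19.4% lower). Without TCM it gave 8 calls, 3 higher (Rora, Bcl6, Ahr) and 5 lower (Gata3, Maf, Foxp3, Ikzf2, Cd4), beside 45.1% of all genes (22.1% higher and 23% lower). The called genes were also those without overlap between groups, 7 of the 9 with TCM beside 50% of all genes and 8 of the 9 without TCM beside 57.3%. The median absolute log2 fold change of the 9 genes was 0.65 with TCM, against 0.27 over all genes, and 1.03 without TCM, against 0.30. Tested as a difference between IL-12 and IL-2 cells, the effect of TCM gave 2 calls, Maf higher and Bcl6 lower, beside 1.58% of all genes (1.19% higher and 0.39% lower), 5 when replicate numbers were blocked in the IL-2 groups (1668 of all 15897 genes in place of 251), 4 without IL-2 80%TCM replicate 3 (1164 of 16193 genes) and 1 without replicate 2 of IL-12 80%TCM, IL-12 or IL-2. These comparisons share groups of libraries, so their values for a gene are not independent of each other. The 9 genes were chosen with earlier results of these data known, so their counts beside those of all genes are a description only.

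**Figure D4:**
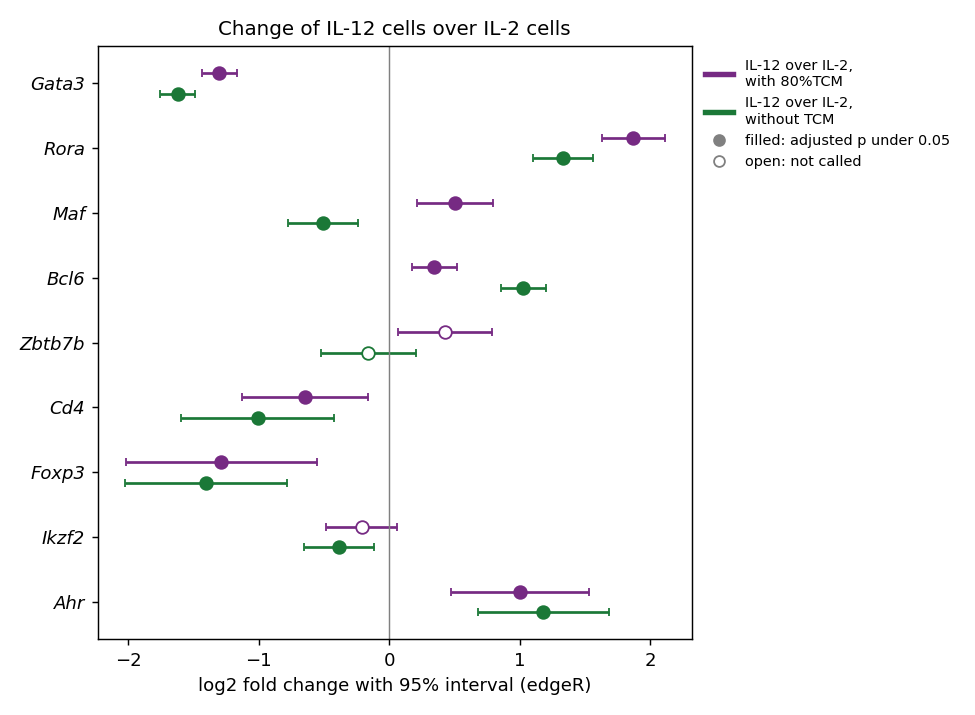
Log2 fold change of IL-12 over IL-2 for the 9 genes, with TCM and without TCM. Points are edgeR estimates, bars are 95% intervals from 3 libraries a group, and filled points mark adjusted p under 0.05. Gata3, Foxp3 and Cd4 are lower and Rora, Bcl6 and Ahr higher with IL-12 in both settings, while Maf changes side.

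IL-12 is known for inducing the type 1 helper programme. Of the 14 genes of that list, 10 were higher and 3 lower with IL-12 than with IL-2 with TCM, and 8 were higher and 4 lower without. Ifng, which encodes interferon gamma, had 83.3 ± 4.91 CPM in IL-12 80%TCM, 64.4 ± 4.83 in IL-12, 1.72 ± 0.310 in IL-2 80%TCM and 1.53 ± 0.603 in IL-2. The lower genes of the type 1 list included Stat4, at a log2 fold change of -0.55 ± 0.046 with TCM (SE, edgeR adjusted p = 6.05e-07). Cxcr3 was lower as well, at -1.63 ± 0.179 with TCM (adjusted p = 9.61e-06). In the type 2 list 3 of 11 tested genes were higher and 6 lower with TCM, and 2 were higher and 5 lower without. The higher genes there included Il10 and Il1rl1, which encodes the IL-33 receptor ST2, at 41.6 ± 3.86 CPM in IL-12 80%TCM, 65.1 ± 1.73 in IL-12, 4.87 ± 1.24 in IL-2 80%TCM and 5.39 ± 1.24 in IL-2. Il4ra, the IL-4 receptor chain, was lower with IL-12 and higher with TCM, at 213 ± 8.17 CPM in IL-12 80%TCM, 113 ± 7.79 in IL-12, 388 ± 43.9 in IL-2 80%TCM and 292 ± 23.5 in IL-2. The signature cytokine gene Il4 had group means of at most 0.455 CPM, and Il5 of at most 0.0576 CPM. Il13, a further cytokine gene of the list, was also low but was called. It averaged 0.0174 CPM in IL-12 80%TCM, 0.0294 in IL-12, 0.625 in IL-2 80%TCM and 0.645 in IL-2. Its log2 fold change of IL-12 over IL-2 was -4.84 ± 0.823 with TCM (SE, edgeR adjusted p = 0.000418) and -3.96 ± 0.607 without (adjusted p = 0.000173).

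The medians of the lists can be set beside the median log2 fold change of all genes tested, which was -0.01 for IL-12 over IL-2 with TCM and -0.01 without. With TCM the list median was -1.20 for GATA family members and cofactors, 0.90 for the type 1 list and 0.96 for the follicular list. It was 0.34 for MAF relatives and targets, 0.32 for the AHR list and -0.39 for the type 2 list. For the remaining lists it lay between -0.14, for BCL6 partners and antagonists, and 0.14, for the type 17 list. Without TCM the median was -1.04 for the GATA list, 1.03 for the type 1 list, 0.38 for the follicular list, 0.20 for the MAF list, 0.17 for the AHR list and -1.01 for the type 2 list. For TCM within IL-12 and within IL-2 the medians of all genes were 0.01 and 0.00, those of the follicular list -0.01 and 0.19, and those of the list on the choice between CD4 and CD8 -0.01 and 0.05.

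Markers of other cell types were summed because Cd4, Foxp3, Ahr, Gata3 and Rora are also expressed outside CD8 cells. B cell markers summed to 8.74 to 10.4 CPM in IL-12 80%TCM, 6.64 to 8.32 in IL-12, 17.5 to 20.7 in IL-2 80%TCM and 16.9 to 20.6 in IL-2. Myeloid markers, from cells that also transcribe Ahr, summed to 10.8 to 12.2 CPM in IL-12 80%TCM, 7.02 to 9.21 in IL-12, 12.7 to 19.8 in IL-2 80%TCM and 10.9 to 14.3 in IL-2. Of the 8 genes of each of these lists, 5 of the B cell list and 4 of the myeloid list had counts in all 12 libraries, and none was at 0 throughout a group. The myeloid and B cell sums were lowest in the IL-12 libraries, which also had the lowest Cd4. Elsewhere the orders differed. The B cell sums of IL-2 80%TCM and IL-2 overlapped, while Cd4 averaged 3.81 CPM and 1.21 CPM in these groups. IL-2 had higher B cell sums than IL-12 80%TCM but lower Cd4, at 1.21 CPM against 2.45 CPM. Of 4 tested myeloid genes, 1 was higher and 0 lower with TCM in IL-12 cells, and 0 were higher and 1 lower in IL-2 cells. The part of such cells in the result was not tested.

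The 4 genes of the CD4 T cell list summed to 29.2 to 33.1 CPM in IL-12 80%TCM, 16.2 to 17.2 in IL-12, 19.9 to 33.6 in IL-2 80%TCM and 17.6 to 23.5 in IL-2, but 3 of them are among the 9 genes. The type 2 innate lymphoid list, which holds Gata3 and Rora, summed to 117 to 131 CPM in IL-12 80%TCM, 138 to 143 in IL-12, 70.6 to 76.9 in IL-2 80%TCM and 84.8 to 93.4 in IL-2. Of its 6 tested genes, 2 (Rora and Il1rl1) were higher and 3 lower with IL-12 than with IL-2 with TCM, at a median log2 fold change of -0.88. Without TCM the same 2 were higher and 4 were lower, at a median of -1.85. NK cell markers summed to 21.6 to 28.3 CPM in IL-12 80%TCM, 29.1 to 32.3 in IL-12, 53.2 to 71.9 in IL-2 80%TCM and 58.7 to 61.7 in IL-2. Most of that sum was Eomes, which is also on the type 1 list and averaged 21.8 CPM in IL-12 80%TCM, 26.8 in IL-12, 59.8 in IL-2 80%TCM and 57.3 in IL-2. Of 4 tested NK genes, 2 were lower with IL-12 than with IL-2 (Eomes and Klrb1c) and 2 were not called, with TCM and without it. Gamma delta T cell markers summed to 108 to 109 CPM in IL-12 80%TCM, 147 to 165 in IL-12, 72.1 to 101 in IL-2 80%TCM and 77.7 to 98.4 in IL-2. Dendritic cell markers summed to 45.5 to 50.6 CPM in IL-12 80%TCM, 52.5 to 56.9 in IL-12, 58.4 to 69.4 in IL-2 80%TCM and 59.8 to 69.3 in IL-2, mostly from Bst2, which averaged 36.2 CPM in IL-12 80%TCM, 39.7 in IL-12, 52.2 in IL-2 80%TCM and 54.4 in IL-2. Of its 4 tested genes 2 were higher and 2 lower with IL-12 than with IL-2, with TCM and without it. Xcr1 was among the higher, at 8.57 ± 1.70 CPM in IL-12 80%TCM, 10.3 ± 0.725 in IL-12, 0.602 ± 0.292 in IL-2 80%TCM and 2.14 ± 0.932 in IL-2.

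Platelet and megakaryocyte markers summed to 112 to 121 CPM in IL-12 80%TCM, 118 to 134 in IL-12, 186 to 227 in IL-2 80%TCM and 297 to 336 in IL-2. The highest of these genes was Itgb3, an integrin subunit gene, at 89.5 ± 1.82 CPM in IL-12 80%TCM, 63.8 ± 4.41 in IL-12, 154 ± 16.2 in IL-2 80%TCM and 209 ± 18.5 in IL-2. With TCM, 5 of the 6 tested genes fell and 1, Itgb3, rose in IL-12 cells, with a list median of -1.23 on the log2 scale, and 6 of the 6 fell in IL-2 cells, with a median of -1.27. Pf4, a chemokine gene of platelets, was at 5.95 ± 0.966 CPM in IL-12 80%TCM, 17.2 ± 1.81 in IL-12, 11.9 ± 2.72 in IL-2 80%TCM and 32.1 ± 5.66 in IL-2. With IL-12 against IL-2, 6 of the 6 were lower with TCM and without it. Erythroid markers summed to 1.05 to 3 CPM over all libraries. The part of these cells in the results was not tested. The protocol text speaks of livers, and hepatocyte markers summed to at most 0.132 CPM in any library.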

How the data were processed

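Total RNA libraries were directional per the labels' protocols, and the authors' count table was made after alignment with STAR 2.7.7a, per the submitters' processing notes, which also name edgeR without a version and the human build GRCh38, although the identifiers are those of mouse. No source used here gives the counting tool or its strand setting. The authors also deposited a signal per gene and library, equal to the count divided by 1 constant per library, which differed from the CPM computed here by at most 2.48%.

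Counts were scaled by TMM and filtered with filterByExpr (minimum count 10, minimum total 15), which left 15897 of 55487 genes. edgeR 4.0.16 was fitted with 1 mean per group over all 12 libraries, and p-values of the quasi-likelihood F test were adjusted by Benjamini-Hochberg over all genes in each of 5 comparisons, at a threshold of 0.05. The SE of a fold change came from the fold change and its F statistic. Exon lengths and overlaps came from GENCODE M21 on GRCm38, and promoters from RefSeq on GRCm38.p6, both of which may differ from the authors' annotation. Symbols were matched for 55141 identifiers and not for 346.

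Replicate numbers in the labels were checked from the residuals. Same-number correlations were 0.43, 0.40 and 0.68 between IL-2 80%TCM and IL-2, all above 0.1, so a block within the IL-2 groups is given where it changes a call. Replicates 1 and 2 were as alike across numbers, so this pairing comes from the data, mostly from replicate 3, and not from the labels. Between the other groups the correlations were -0.09 to 0.13. The scripts were tested on simulated data.

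The 9 genes and the gene lists were chosen with earlier results of these data known. The genes named are the 9, for each list those with the smallest p in a comparison or the closest partners of a member, and the 3 genes most like a member, some of which are not reported here. Pkm, Cd40lg, Il4, Il5, Il13, Il17a and Il22 were picked with their values seen. Alternatives, run with edgeR, DESeq2 1.42.0 and limma 3.58.1, began with DESeq2 size factors, no filter and DESeq2. Next came limma on log2(CPM + 1) and log2(CPM + 0.1) of the deposited signal with a minimum of 1 CPM, and only the groups compared. A replicate block was set over all 12 libraries, and another within the IL-2 groups. The rest were the IL-2 groups without their replicate 3, and each library left out.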

Additional observations from a re-analysis of the deposited data

Results flagged for a closer look

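The effect of TCM differed between the cytokines for Maf and Bcl6, by a test of the difference itself. For Maf the log2 fold change with TCM under IL-12 minus that under IL-2 was 1.01 (edgeR adjusted p = 0.0151), where Maf fell with TCM in IL-2 cells and was at 5.94 ± 0.696 CPM in IL-12 80%TCM and 5.96 ± 0.462 CPM in IL-12 (SD, n = 3 each). For Bcl6 it was -0.68 (adjusted p = 0.00965), with a rise under both cytokines that was smaller under IL-12. With each library left out in turn, the Maf difference was no longer called without replicate 2 of IL-12 80%TCM, IL-12 or IL-2, at adjusted p of 0.0669, 0.0599 and 0.0525, while the Bcl6 difference was called in all 20 alternatives.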

How the results depend on the processing

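Over 935 results of the 9 genes in 21 alternatives, 869 kept their side of the threshold, 36 calls were lost, 30 were gained and 0 changed direction while called. Values that were called in neither fit changed sign 10 times, for Ahr, Foxp3 and Maf with 1 library left out, at adjusted p of 0.777 to 0.998. Over all genes, the main counts of calls were 4617 for TCM within IL-12, 2313 for TCM within IL-2, 6192 for IL-12 over IL-2 with TCM, 7171 without TCM and 251 for the difference of the TCM effects. The difference gave 779 genes and 4 of the 9 with no filter, and 550 genes with DESeq2. With only the groups compared, TCM within IL-12 gave 7133 genes, and TCM within IL-2 gave 587 genes and 3 of the 9. Replicate numbers as a block in the IL-2 groups gave 4442 genes for TCM within IL-2 and, for the difference, 1668 genes and 5 of the 9, and it changed no calls of the 9 genes other than those given beside the results. Without the third library of both IL-2 groups, TCM within IL-12 gave 7332 genes, TCM within IL-2 gave 3936, and the difference gave 2105 genes and 5 of the 9. With each library left out in turn, TCM within IL-12 gave 2931 to 5697 genes and 2 to 3 of the 9, TCM within IL-2 gave 1292 to 2938 genes and 3 to 4 of the 9, IL-12 over IL-2 with TCM gave 4910 to 6747 genes and 5 to 8 of the 9, without TCM 5595 to 8153 genes and 7 to 8 of the 9, and the difference 105 to 1164 genes and 1 to 4 of the 9. The highest count for the difference came without IL-2 80%TCM replicate 3, and the other libraries left out gave 105 to 275 genes, most of them fewer than the 251 of the main fit. The lowest for TCM within IL-2 came without IL-2 replicate 1, followed by IL-2 replicate 2 at 1432, and for TCM within IL-12 without IL-12 replicate 1, followed by IL-12 80%TCM replicate 3 at 3067. The cause of these shifts was not tested. Foxp3, Ahr and Cd4 rest on 6 to 158 counts per library, which limits the precision of their values, and DESeq2 gave no adjusted p for Foxp3 in the difference.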
